A study of Homo sapiens with 6 samples.

Results

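The solute carriers are the largest group of membrane transport proteins in human cells, and the 128 genes described here are those whose symbol starts with SLC, a family number, the letter A and a member number, leaving out the mitochondrial SLC25A carriers. They were taken by symbol alone, from the 10779 genes of the tables of ribosome profiling in HEK293 cells. The translational efficiency table held 75 of them among 8121 genes and the codon occupancy table held 121 among 9570 transcripts. Both tables held 68, the occupancy table alone held 53, and SLC19A1, SLC30A4, SLC30A6, SLC35A5, SLC39A14, SLC41A2 and SLC7A5 were in the translational efficiency table alone. The 128 genes fell into 39 families and were grouped by family into 9 kinds of cargo. The symbol rule also took 5 genes whose proteins are named after a carrier but do not transport: SLC9A3R1, SLC9A3R2, SLC2A4RG, SLC4A1AP and SLC7A6OS.

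HEK293 is an established line derived from human embryonic kidney. All cells had received a control siRNA, and the 6 libraries were 3 of ribosome-protected fragments (RPFs), which are the stretches of mRNA shielded by a ribosome during RNase I digestion, and 3 of total RNA from the same lysates. Per the study's methods, the cells were treated with cycloheximide, which stalls elongating ribosomes, before lysis. They were also washed and lysed in it. With a single condition the design allows no comparison of treatments, so each gene was compared with the other genes. All 5 of the markers listed for HEK293 cells (NEFL, NEFM, VIM, KRT8 and KRT18) were in both tables, and of 5 markers of other cell types only COL1A1 was. Nothing in the labels says that the 3 replicates were separate cultures, so the p-values measure the spread between these samples only.

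Solute carriers move nutrients, ions, metals and metabolites across membranes, mostly by coupling the cargo to an ion gradient or by exchanging it for another solute. Most are made at the endoplasmic reticulum as proteins with many membrane-spanning helices and act at the plasma membrane, while others serve the Golgi, lysosomes, endosomes or synaptic vesicles. Several are known targets of control at the level of translation or mRNA stability by the nutrient they carry.

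Translational efficiency is the ratio of ribosome-protected fragments to total RNA for a gene, and it was given for each of the 3 replicates. Solute carriers tended to lie below the other genes. Their median was 0.278 ± 0.022 (SD, n = 3) against 0.383 ± 0.004 for all genes. Of the 75 carriers, 22 (29.3%) were higher than the median of all values and 45 (60%) were lower (limma on log2(ratio + 0.01), Benjamini-Hochberg adjusted p under 0.05 over all 8121 genes). Among all genes the same calls covered 44.7% higher and 44.6% lower. A stricter call, more than 2-fold from the median, took 9 carriers (12%) above and 18 (24.0%) below, where all genes gave 23.3% and 18.2%. The 8 carriers called in neither direction were SLC1A4, SLC35A4, SLC1A3, SLC41A2, SLC30A6, SLC39A3, SLC2A12 and SLC2A13.

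The replicates lay close together compared with the range of the family. From SLC4A2 at 0.0503 to SLC31A1 at 3.02, the mean ratios spanned 60.05-fold, while the coefficient of variation of a carrier ran from 0.523% to 26.5% with a median of 8.12%, beside 7.27% for all genes. Of the 74 pairs of neighbours in the order of means, 66 overlapped in their replicate values and 8 did not. Pairs that did not overlap included SLC31A1 over SLC30A1, SLC7A1 over SLC7A11, SLC38A2 over SLC16A10, SLC20A1 over SLC7A5, SLC39A14 over SLC9A3R1, SLC30A5 over SLC3A2 and SLC4A7 over SLC39A1.

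**Figure D1:**
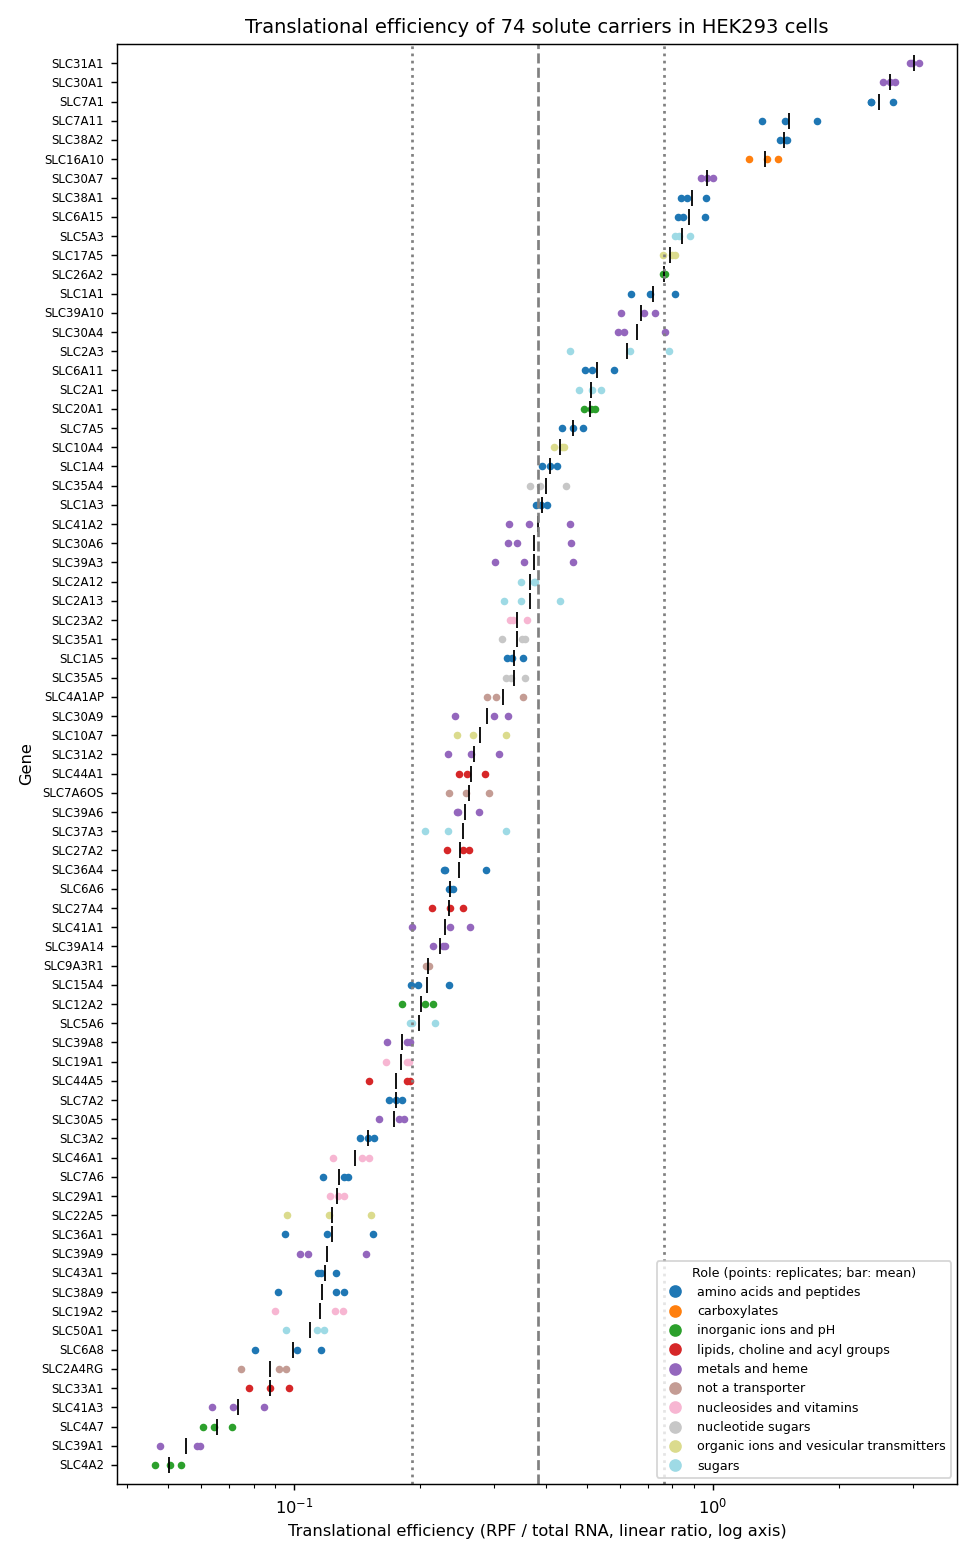
Translational efficiency (ratio of RPF to total RNA, log axis) of 74 of the solute carriers, ordered by mean, with a point for each of 3 replicates coloured by cargo and a bar for the mean. The dashed line is the median of all values, 0.383, and the dotted lines mark 2-fold from it. The carriers run from SLC4A2 at 0.0503 to SLC31A1 at 3.02 and more of them lie left of the dashed line than right of it.

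The carriers at the ends of this order are those the comparison turns on, and the bases around their start codons are shown so that the highest and the lowest can be set side by side. Each line gives the 12 bases before the annotated start codon, the ATG in capitals and the 15 bases after it, from GRCh37 with GENCODE 44 annotation. The first 4 lines are the highest carriers and the last 4 are the lowest.
SLC31A1, chr9:116018417-116018446, plus strand: ttcctggaaaaaATGgatcattcccaccat
SLC30A1, chr1:211751937-211751966, minus strand: gcagccgcagccATGgggtgttggggtcgg
SLC7A1, chr13:30110308-30110337, minus strand: ctgaacagcaacATGgggtgcaaagtcctg
SLC7A11, chr4:139163206-139163235, minus strand: tgtgtccctactATGgtcagaaagcctgtt
SLC41A3, chr3:125787045-125787074, minus strand: agctgtgcccagATGgatgggacagagacc
SLC4A7, chr3:27525600-27525629, minus strand: ggccggccggccATGgaggctgatggggcc
SLC39A1, chr1:153935174-153935203, minus strand: accagaagcatcATGgggccctggggagag
SLC4A2, chr7:150759715-150759744, plus strand: cccctgccggccATGgacttcctcctgcgg
All 8 had a G directly after the ATG, so this base did not separate high from low carriers. A purine stood 3 bases before the ATG in 85.1% of the 114 carriers matched to a GENCODE transcript and in 85.5% of all matched transcripts, and a G followed the ATG in 57.9% and 53.2%.

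Metal carriers held both of the highest values and some of the lowest, with 5 of 18 above the median, 10 below it, and a group median of 0.286 ± 0.031 (SD, n = 3). SLC31A1, the high-affinity copper importer of the plasma membrane, had ratios of 2.95, 3.11 and 3.0 in the 3 replicates. Its difference from the median was 2.95 ± 0.049 on the log2 scale (SE, adjusted p = 1.35e-06). Of the 30-base stretches of its coding sequence (CDS) 23.0% were shared with other genes, most often the pseudogene SLC31A1P1. Its value is uncertain to the extent that reads were divided between them. SLC31A2, a related protein of endosomes and lysosomes, had a ratio of 0.268 ± 0.038 and was below the median (adjusted p = 0.00303).

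Among zinc carriers, 3 of 6 exporters were above the median and 5 of 7 importers were below it. SLC30A1, which sends zinc out of the cell, had ratios of 2.54, 2.65 and 2.73 and was 2.75 ± 0.051 above the median on the log2 scale (adjusted p = 1.52e-06). SLC30A7, which loads zinc into the secretory pathway, had ratios of 0.935, 0.969 and 1.00 (adjusted p = 0.0027 for more than 2-fold). The exporting SLC30A family, with 2 members below the median, had a group median of 0.517 ± 0.052 (SD, n = 3), and the importing SLC39A family, with 1 above, had 0.224 ± 0.008. The SLC39A family spread widely, from SLC39A10 at 0.672 ± 0.063 down to SLC39A1. SLC39A1, a zinc importer of the plasma membrane, had ratios of 0.0479, 0.0595 and 0.0585, so every replicate was below every replicate of SLC4A7, the next carrier up. SLC39A14, which carries zinc, manganese and iron, had a ratio of 0.224 ± 0.008 and SLC41A3, of a family of magnesium carriers, had 0.0733 ± 0.010. The difference between the families was not tested, since the members are different genes and not replicates.

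Amino acid carriers were the largest group, with 8 of 21 above the median and 11 below it, 4 and 6 of these more than 2-fold. The group median was 0.336 ± 0.015 (SD, n = 3). SLC7A1, the main carrier of arginine and lysine in many cells, had ratios of 2.69, 2.39 and 2.39 and was 2.67 ± 0.060 above the median on the log2 scale (adjusted p = 2.14e-06). SLC7A11, the cystine and glutamate exchanger, had ratios of 1.77, 1.49 and 1.31, the widest SD of any carrier at 0.234, and its replicates overlapped those of SLC38A2 and SLC16A10. SLC38A2, a sodium-coupled carrier of small neutral amino acids, had ratios of 1.5, 1.45 and 1.5. SLC38A1, its close relative, had 0.870, 0.961 and 0.841, while SLC38A9, the arginine sensor of the lysosome in the same family, had 0.0915, 0.126 and 0.132.

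The heavy chain SLC3A2 and the light chains that it holds at the cell surface did not share a level. SLC3A2 had ratios of 0.144, 0.150 and 0.156 and was more than 2-fold below the median (adjusted p = 0.00348). Of its light chains, SLC7A11 was the highest, SLC7A5, the exchanger of large neutral amino acids, had 0.464, 0.489 and 0.435, and SLC7A6, an exchanger of cationic for neutral amino acids, had 0.117, 0.132 and 0.134. SLC7A5 shared 19.1% of its coding 30-mers with other sequences. CD44, a surface protein that binds SLC7A11, had a ratio of 0.311 ± 0.020.

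The SLC1A carriers of glutamine, glutamate and related amino acids lay around the median, except for SLC1A1. SLC1A5, the glutamine exchanger, had ratios of 0.323, 0.353 and 0.332, slightly below the median (adjusted p = 0.0208, and 0.0779 or 0.0994 without replicate 1 or 3). SLC1A4, which exchanges alanine, serine and cysteine, had 0.408 ± 0.017 and SLC1A3, a glutamate carrier, had 0.390 ± 0.012, neither of which passed the test. SLC1A1, another glutamate and cysteine carrier, was higher at 0.719 ± 0.089. SLC6A15, a carrier of branched-chain amino acids, had 0.878 ± 0.072 and missed the 2-fold call (adjusted p = 0.0538). SLC6A8, which carries creatine and was counted here with its SLC6A family, had 0.102, 0.116 and 0.0808. However, 43.3% of its coding 30-mers were shared with other genes, most often the pseudogene SLC6A10P.

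Carriers of inorganic ions were divided, with 3 of 6 above the median and 3 below. SLC4A2, which exchanges chloride for bicarbonate, had 0.0465, 0.0506 and 0.0538, the lowest of all 75 carriers (log2 difference from the median -2.71 ± 0.057, adjusted p = 1.88e-06). SLC4A7, a sodium bicarbonate cotransporter, had 0.0605, 0.0645 and 0.0710. The phosphate carrier SLC20A1 had 0.509 ± 0.017, the sulfate carrier SLC26A2 had 0.765 ± 0.004, and SLC12A2, the sodium, potassium and chloride cotransporter, had 0.201 ± 0.017. SLC12A2 is switched on by the kinases OXSR1 and STK39, which are themselves activated by WNK1. These kinases had ratios of 0.661 ± 0.063, 1.98 ± 0.141 and 0.145 ± 0.007. ATP1B1 and ATP1B3, beta subunits of the sodium pump, which makes the gradient that many carriers use, had 0.921 ± 0.255 and 1.97 ± 0.086.

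Carriers of vitamins and nucleosides had the lowest group median of any kind of cargo. It was 0.142 ± 0.011 (SD, n = 3). All 5 in the table were called below the median of all values, 3 of them more than 2-fold. Among all carriers 45 of 75 were called below it, as were 44.6% of all genes. The count of 5 was not tested against these shares. SLC19A2, a thiamine carrier, had ratios of 0.0902, 0.131 and 0.126, SLC29A1, the equilibrative nucleoside carrier, had 0.127, 0.122 and 0.131, and SLC46A1, a proton-coupled folate carrier, had 0.151, 0.124 and 0.146. The reduced folate carrier SLC19A1 had 0.180 ± 0.013. The ascorbate carrier SLC23A2 had 0.340 ± 0.018 and was only slightly below the median, at 0.89 of it. The call of SLC23A2 (adjusted p = 0.0327) was lost without any one of the 3 replicates. SLC5A6, which carries biotin and pantothenate but was counted with the sugar carriers by its family, was also below the median at 0.199 ± 0.016.

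Carriers of lipids, choline and acyl groups were likewise called below the median in 5 of 5, 1 of them more than 2-fold. SLC33A1, which brings acetyl-CoA into the endoplasmic reticulum, was the lowest of these with ratios of 0.0780, 0.0971 and 0.0875, and SLC27A4, a fatty acid carrier with acyl-CoA synthetase activity, had 0.234 ± 0.020. The 4 proteins in the table that are not transporters were also called below the median in 4 of 4. Without replicate 2 or 3 it was 3 of 4, when SLC4A1AP lost its call (adjusted p = 0.063 and 0.0647). Neither group's count was tested against the 45 of 75 called below among all carriers. SLC2A4RG, a DNA-binding regulator, had 0.0875 ± 0.011, the scaffold SLC9A3R1 had 0.209 ± 0.002, SLC7A6OS had 0.262 ± 0.029 and SLC4A1AP had 0.315 ± 0.034.

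Sugar carriers were divided, with 3 of 8 above the median and 3 below. SLC2A1, the basal glucose carrier, had ratios of 0.515, 0.540 and 0.479. SLC2A3, a glucose carrier of high affinity, had 0.456, 0.786 and 0.632 and was the least repeatable of all 75 by its coefficient of variation. It shared 51.2% of its coding 30-mers with other genes, most often SLC2A14, so this value is uncertain. The inositol carrier SLC5A3 had 0.842 ± 0.035 and SLC50A1, a sugar carrier of the Golgi and plasma membrane, had 0.109 ± 0.012. In the other groups, SLC17A5, the sialic acid carrier of lysosomes, had 0.790 ± 0.028, the carnitine carrier SLC22A5 had 0.0959, 0.121 and 0.152, and SLC35A1, which carries CMP-sialic acid into the Golgi, had 0.340 ± 0.023. SLC16A10, a carrier of aromatic amino acids and thyroid hormone, was the only member of the monocarboxylate family in this table and had 1.35, 1.43 and 1.22. The chaperones BSG and EMB, which bring other members of that family to the surface, had 0.506 ± 0.013 and 0.492 ± 0.077.

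**Figure D2:**
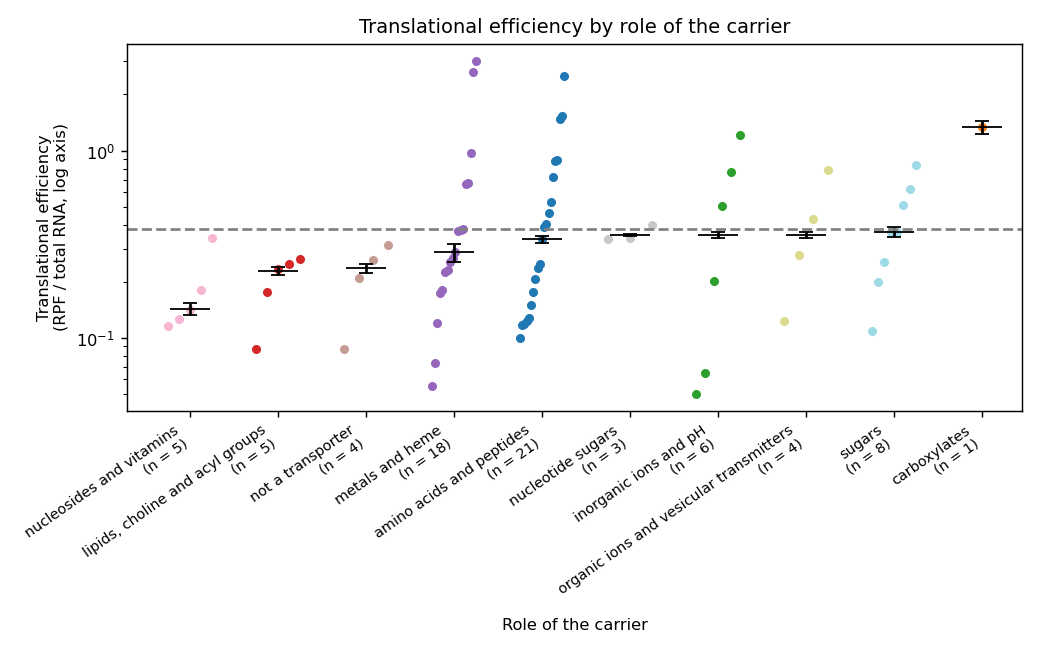
Translational efficiency (ratio of RPF to total RNA, log axis) of the solute carriers by cargo, with a point for the mean of each gene over 3 replicates. Horizontal bars and error bars give the median over genes as mean ± SD over the 3 replicates, and the dashed line is the median of all values, 0.383. Carriers of nucleosides and vitamins have the lowest median, 0.142, and amino acid and metal carriers cover the widest ranges.

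Other transport proteins were set beside the solute carriers. The median ratio was 0.277 ± 0.026 in 28 mitochondrial SLC25 carriers, 0.283 ± 0.016 in 19 solute carriers of other letters, 0.260 ± 0.021 in 16 P-type ATPases and 0.421 ± 0.021 in 11 ABC transporters (SD, n = 3). Of these groups, 3 had a median close to that of the solute carriers and the ABC transporters had a higher one, and no difference between groups was tested.

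The amount of mRNA was recovered from the occupancy table, in which each read is worth the inverse of the transcript's abundance, and is given relative to the median transcript. It is a level per length, so that genes can be compared. Carriers had a median of 0.612 of that of the median transcript, with 1.18 for the 68 in both tables and 0.198 for the 53 in the occupancy table alone. SLC16A1, the lactate and pyruvate carrier, had the most mRNA at 14.1, followed by SLC1A5 at 13.2, SLC3A2 at 8.60 and SLC39A1 at 7.68. The order by mRNA was not that by translational efficiency. SLC7A11 combined 0.750 of the median mRNA level with a ratio of 1.52, and SLC39A1 combined 7.68 with 0.0553. Across the 68 carriers the rank correlation of mRNA level with translational efficiency was -0.13, beside 0.13 over 6816 genes. These points share the total RNA libraries, which enter both quantities, and genes are not independent replicates.

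**Figure D3:**
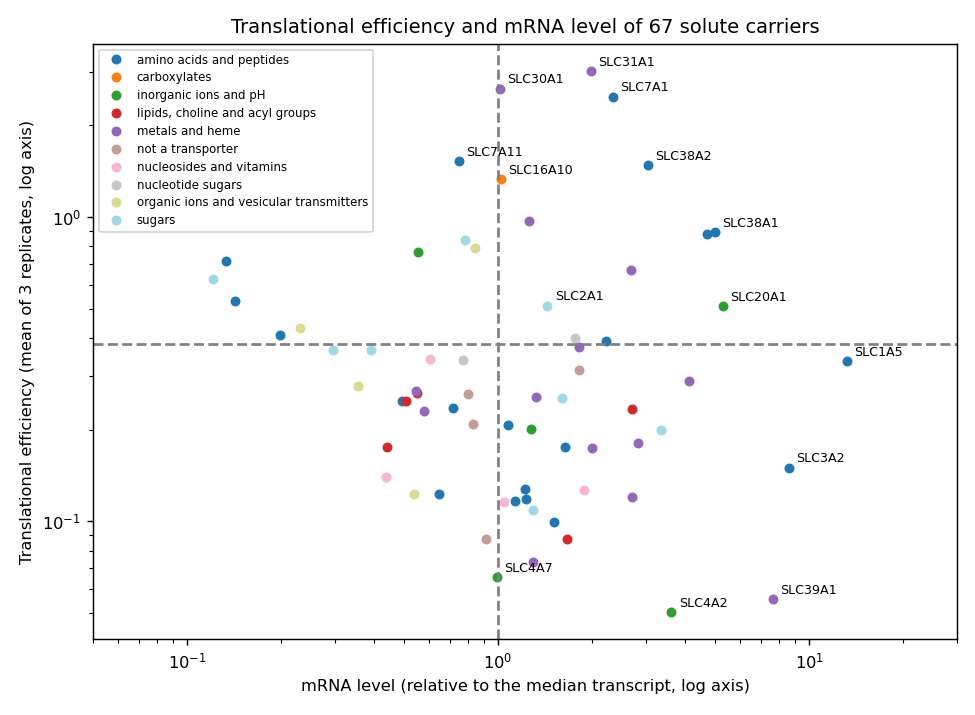
Translational efficiency (mean of 3 replicates, ratio, log axis) against mRNA level relative to the median transcript (log axis) of 67 of the solute carriers in both tables, coloured by cargo. Dashed lines mark the median of all values (0.383) and of all transcripts. SLC31A1 lies at the top with a ratio of 3.02 and SLC39A1 at the lower right with an mRNA level of 7.68.

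The occupancy table gives, for each codon, in-frame reads of ribosome-protected fragments divided by the mRNA abundance (TPM, the level of a transcript per length and library size), with the replicates combined, so its values carry no replicate error and no test was made on them. The numbers of in-frame reads behind them were recovered as whole reads, except for 86 values in 11 carriers that were estimated, 51 of them in SLC16A1 and 9 in SLC1A5. The table uses 1 transcript per gene, and 37 of the 114 matched carriers had a CDS shorter than the longest annotated for the gene, among them SLC1A5 with 313 of 541 codons, SLC50A1 with 166 of 221, SLC35A2 with 218 of 421 and SLC38A10 with 780 of 1119. The CDS of a carrier held from 42 to 59026 reads, with a median of 770, and 10 carriers had under 100. Their median CDS occupancy was 0.0318 against 0.0450 for all transcripts, and 79 of 121 (65.3%) lay below the median of all transcripts. It was 0.0424 in the 68 carriers of both tables and 0.0280 in the 53 of the occupancy table alone.

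The 5 carriers with the highest CDS occupancy were all among the 9 that were more than 2-fold above the median translational efficiency. Among them were SLC38A2 at 0.148, SLC31A1 at 0.135, SLC7A1 at 0.133 and SLC30A1 at 0.125. The lowest were SLC35A4 at 0.000936 from 47 reads, SLC24A1, a calcium exchanger of photoreceptors, at 0.00429 from 66 reads, SLC27A5, a bile acid and fatty acid CoA ligase, at 0.00532 from 45 reads, SLC2A4RG at 0.00672 and SLC50A1 at 0.00713. Both measures come from the same libraries, and their rank correlation was 0.68 over 68 carriers and 0.69 over 6912 genes.

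Some carriers ranked differently in the 2 tables. SLC4A7 was in the lowest 2.39% of genes by translational efficiency and at percentile 56.9 by CDS occupancy. SLC29A1 was at percentiles 12 and 57.6, and SLC7A2, a cationic amino acid carrier, at 20.9 and 66.2. In the other direction SLC35A4 stood at percentile 51.5 by translational efficiency and 0.125 by CDS occupancy, and SLC39A3 at 48.7 and 7.93. These 5 were picked after their values were seen, as those furthest apart. The occupancy table uses a single transcript per gene, and the sources used here do not give the regions counted for the translational efficiency ratio.

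Of the well-known carriers that were in the occupancy table alone, SLC16A1 was the most occupied, with a mean of 0.0924 from 59026 reads. SLC35A3, the UDP-N-acetylglucosamine carrier of the Golgi, had 0.0627, SLC11A2, the carrier of ferrous iron, had 0.0359, and SLC44A2, a choline carrier, had 0.0291. Lower means were found for SLC37A4, the glucose-6-phosphate carrier of the endoplasmic reticulum, at 0.0265, SLC16A3, a lactate exporter, at 0.0203, SLC35A2, the UDP-galactose carrier, at 0.0168 and SLC20A2, a phosphate carrier, at 0.0137. All except SLC16A1, SLC35A3 and SLC11A2 were thus below the carriers' own median of 0.0318. SLC40A1, the iron exporter, was in neither table.

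Upstream of the main start codon, the median carrier held more of its occupancy than the median of all transcripts. Over the 92 carriers with a 5′UTR of more than 100 nt, the median share of a transcript's occupancy in the 5′UTR was 1.69%, beside 0.784% for all such transcripts. It was 3.61% in the solute carriers of other letters, 1.48% in the SLC25 carriers, 0.421% in the ABC transporters and 0.361% in the P-type ATPases, so the higher median was shared with other solute carriers, and no difference between groups was tested. The highest shares were 97.4% in SLC35A4, 35.7% in SLC45A4, a sugar carrier with only 42 reads there, 29.6% in SLC39A3, a zinc importer, 29.3% in SLC41A1, a magnesium carrier, and 21.1% in SLC22A23, an organic ion carrier of unknown cargo with 53 reads. The 5′UTR of the transcript used can be coding sequence in another transcript of the gene, which was the case in part for 13 of the 114 matched carriers (11.4%) and 10.3% of all transcripts. In SLC22A23 all of the 5′UTR occupancy lay in such sequence, and in SLC1A5, where 8.27% of the occupancy was in the 5′UTR, 99.9% of that did, so neither is evidence of ribosomes upstream of the coding sequence. Without such transcripts the median 5′UTR share was 1.64% in carriers and 0.694% in all. Also without them, an upstream open reading frame (ORF) of ATG to stop, both inside the 5′UTR, was looked for. It was found in 36 of 71 carriers with reads in the 5′UTR (50.7%) and in 39.8% of 5837 transcripts. ORFs that start upstream and run on into the CDS were not looked for. In those 36 carriers the ORFs covered a median of 22.2% of the 5′UTR codons and held 64.3% of the 5′UTR occupancy, beside 21.8% and 52.6% in all transcripts with an ORF. The share of occupancy was above that of codons in 31 of the 36 carriers (86.1%) and in 72.7% of all such transcripts. It was below in SLC6A15, which had the most 5′UTR reads of any carrier, with 141 of 1909 in the ORF found. No minimum of reads was set, so a share can rest on very few, as in SLC6A9 with 1 read in the 5′UTR. The median translational efficiency was 0.353 in the 24 carriers with an ORF that were in the other table and 0.338 in the 22 without. Those without can still have an ORF that runs on into the CDS.

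In SLC35A4, a Golgi carrier of the nucleotide sugar family, nearly all fragments lay on an upstream ORF. This ORF has 103 codons, is annotated in GENCODE as coding, and lies at chr5:139944429-139946347 on the plus strand in 3 exons. It ends 407 nt before the start codon of the carrier, at position 139946755. The sequence around its start, chr5:139944417-139944443, is given with the ATG in capitals.
SLC35A4 upstream ORF: tcggcggggaagATGgcggatgacaag
Of 1839 reads in the 5′UTR, 1818 lay in this ORF. Its mean occupancy was 0.108 against 0.000936 in the carrier's own CDS, which had 47 reads, a difference of 115-fold. The first codon with 10 reads or more was 235 codons upstream, which is where the second exon of the ORF begins, after 15 nt in the first exon. The gene's translational efficiency, 0.446, 0.387 and 0.365 in the 3 replicates, did not differ from the median (adjusted p = 0.515), and the sources used here do not say whether reads on the upstream ORF were counted in it.

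Another 6 carriers, in which no 5′UTR base was coding in another annotated transcript, had an upstream ORF with 100 reads or more that held at least 50% of the 5′UTR occupancy, a limit chosen after the values were seen. The first bases of each ORF are shown, with 6 bases before the ATG, which is in capitals, since these starts can be compared with the main start codons above.
SLC16A1, chr1:113471971-113497923, minus strand, over 2 exons: ggtccgATGcaagttttttgttccaaatat
SLC5A6, chr2:27435050-27435079, minus strand: gtcttcATGcgccctagccctctttcgggg
SLC37A3, chr7:140082379-140082393, minus strand: gaagaaATGatgtaa
SLC20A1, chr2:113404164-113404193, plus strand: tccgccATGgaattctgctccgtgctttta
SLC39A3, chr19:2737339-2737368, minus strand: tgagacATGagcctccaactgtgtggttgg
SLC41A1, chr1:205782001-205782030, minus strand: ggagtgATGagaagagggggtgccctgcac
The table holds in-frame reads, but over all transcripts its 5′UTR values showed no preference for the frame of the CDS, so the frame they use is not settled here. ORFs in any frame were taken, and reads in other frames than the one the table kept are missing from these counts. Annotated transcripts were matched by symbol and CDS length only. Their 5′UTRs could differ in length, as in SLC37A3 with 112 nt annotated against 65 codons with values, and SLC39A3 with 195 nt against 81 codons. Positions therefore hold to within 1 codon only where the annotated 5′UTR has the same exons as the one used. The ORFs of SLC5A6 and SLC41A1 are in the frame of the CDS and the other 4 are not.

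The shape of the occupancy differed among these ORFs. In SLC37A3, of the sugar phosphate carrier family, the ORF has 2 codons and held 318 of 342 reads, 307 of them in its first codon, with a mean 31.0 times that of the CDS. In SLC39A3 the ORF of 10 codons held 223 of 250 reads, 168 in the first codon, and its mean was 10.7 times that of the CDS. The 29 bases around that codon occur in 1 other gene. In both genes most reads thus stood within 1 codon of the upstream start codon, provided that the annotated 5′UTR matches the one used.

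In SLC5A6 the ORF of 77 codons held 552 of 682 reads, 232 of them in codon 76, so that the reads gathered at the end of the frame and not at its start. SLC16A1 had the most reads, with 1009 of 1566 in an ORF of 20 codons, but its CDS was more densely occupied and the ORF's mean was 0.414 of it. SLC41A1 had 150 of 216 reads in an ORF of 47 codons at 3.2 times the CDS. These reads also lay mostly towards the end of the frame, with few near its start and the highest value at codon 38. SLC20A1 had 239 of 362 in an ORF of 25 codons at 0.700 of its CDS.

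**Figure D4:**
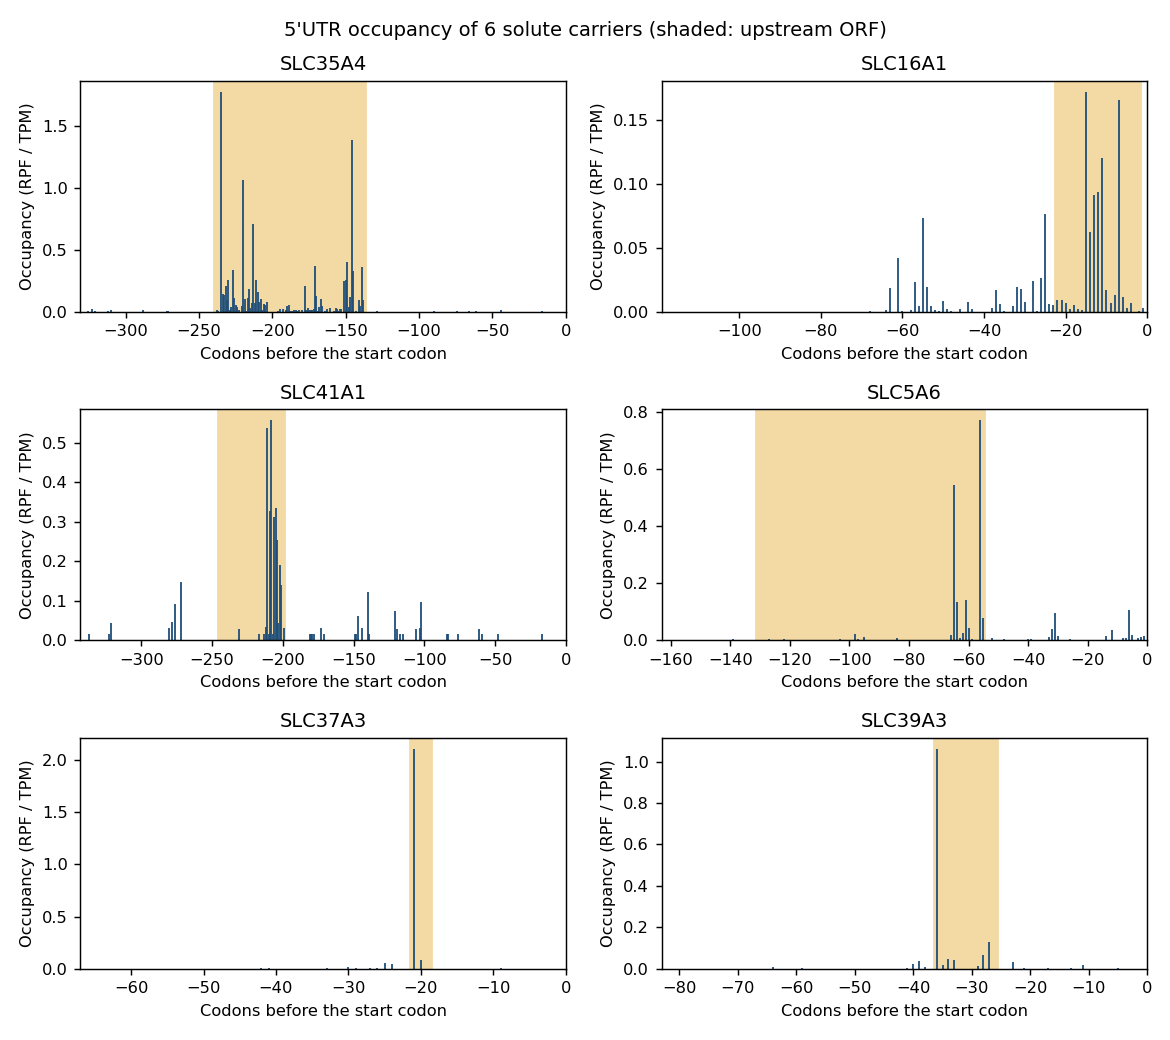
Occupancy (RPF reads divided by TPM, replicates combined) by codon in the 5′UTR of 6 solute carriers, counted backwards from the main start codon at 0, with the upstream ORF shaded. In SLC35A4 the reads start 235 codons upstream and fill the shaded ORF, in SLC37A3 and SLC39A3 most stand in a single codon at its left edge, and in SLC5A6 and SLC41A1 they lie near its right edge.

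Along the CDS, the median carrier had a lower occupancy at the start than at the end, while 49 of 121 carriers went the other way. The ratio of mean occupancy in the first 75 codons to that in the last 75 had a median of 0.858 in carriers and 0.980 in all transcripts, and 72 of 121 carriers (59.5%) were under 1 beside 51.0% of all transcripts. The median ratio was 0.787 in the SLC25 carriers and 0.803 in the solute carriers of other letters, but 1.33 in the ABC transporters and 1.72 in the P-type ATPases. All 7 monocarboxylate carriers of the SLC16A family were under 1, with a median of 0.371. SLC16A10 had the lowest ratio of all, 0.0173, from 14 reads at the start and 831 at the end. SLC12A2 had 0.0246, from 11 and 423 reads, SLC27A5 had 0.0247, from 1 and 32 reads, SLC10A4, a protein of the bile acid carrier family found in synaptic vesicles, had 0.0434, from 5 and 122 reads, and SLC4A1AP had 0.0907. At the other end stood SLC38A10, a relative of the glutamine carriers, at 8.66 from 71 and 8 reads, SLC35A2 at 8.35, the dopamine carrier SLC6A3 at 6.97 from 18 and 3 reads, SLC37A3 at 6.10 and SLC39A3 at 6.06.

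The base composition of the CDS moved with this ratio over the carriers as a group. In SLC16A10 the first 75 codons were 79.1% G or C and the last 75 were 42.2%, in SLC12A2 80.9% and 41.3%, and in SLC10A4 75.1% and 36.4%. Of the carriers with the highest ratios, SLC35A2 had 58.2% and 63.6% and SLC39A3 54.2% and 66.7%, whereas SLC38A10, with the highest ratio, went against this order at 61.3% and 57.8%. The first 30 codons of 2 carriers with very low and 2 with very high ratios are shown so that this difference can be seen, with the ATG in capitals.
SLC16A10, chr6:111408956-111409045, plus strand: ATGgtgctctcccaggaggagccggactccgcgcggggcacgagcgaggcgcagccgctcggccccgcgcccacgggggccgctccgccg
SLC12A2, chr5:127419647-127419736, plus strand: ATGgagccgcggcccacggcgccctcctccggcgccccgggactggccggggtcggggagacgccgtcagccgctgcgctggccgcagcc
SLC38A10, chr17:79268632-79268721, minus strand: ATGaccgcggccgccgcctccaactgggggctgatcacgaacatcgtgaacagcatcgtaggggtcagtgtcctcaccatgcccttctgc
SLC35A2, chrX:48767203-48769154, minus strand, over 2 exons: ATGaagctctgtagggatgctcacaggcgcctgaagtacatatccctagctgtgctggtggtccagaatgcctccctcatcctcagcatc
The 30 codons of SLC16A10 and SLC12A2 were 81.1% and 82.2% G or C, and those of SLC38A10 and SLC35A2, with high ratios, were 62.2% and 54.4%. Those of SLC27A5, not shown, were 66.7% although its ratio of 0.0247 was as low as that of SLC12A2.

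Ordered by the GC of the first minus the last 75 codons, the 33 carriers below 0 had a median ratio of 1.80 and 8 of them were under 1. The 51 carriers between 0 and 10 percentage points had 0.858, the 18 between 10 and 20 had 0.481, and the 12 with 20 or more had 0.294, all 12 of them under 1. All transcripts in the same 4 ranges had medians of 1.56, 0.958, 0.566 and 0.266, so that carriers followed the other transcripts. The rank correlation was -0.63 over 114 carriers and -0.56 over 8898 transcripts, points that share the libraries and their base composition. SLC27A5 lay apart with 67.6% and 60%, with 1 and 32 reads in its 2 windows. The part of base composition in the ratio was not tested.

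**Figure D5:**
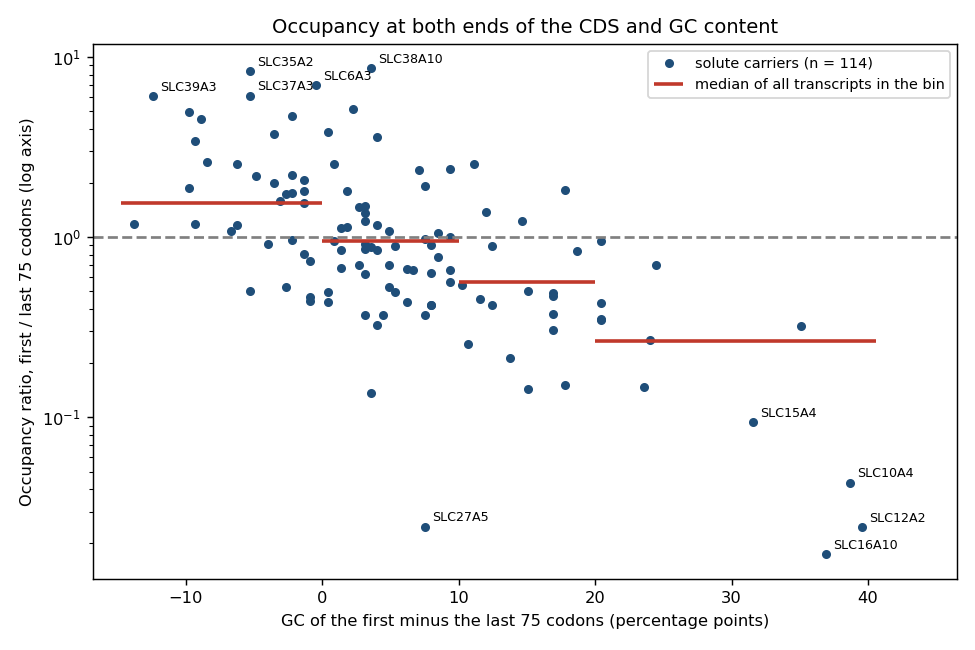
Ratio of occupancy in the first to the last 75 codons (log axis) against the GC content of the first minus the last 75 codons (percentage points) for the 114 solute carriers matched to an annotated transcript. Red lines give the median of all transcripts in 4 ranges, 1.56, 0.958, 0.566 and 0.266, and the carriers fall along them, down to SLC16A10 at 0.0173.

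Single codons took much of the occupancy in a few carriers. The highest codon of a CDS held a median of 4.60% of it in carriers and 4.95% in all transcripts. The highest shares were 34.6% in SLC39A4, a zinc importer, with 360 of 1037 reads, 20.4% in SLC2A8, a glucose carrier of internal membranes, with 50 of 265, 19.1% in SLC35A2, 16.2% in SLC24A1 with 9 of 66, and 15.4% in SLC9A3R1 with 174 of 1126. The peak lay near the stop codon in SLC39A4, at codon 146 of 150, and in SLC2A8, at codon 467 of 478. In SLC35A2, SLC24A1 and SLC9A3R1 it was at codon 89 of 219, 866 of 1013 and 38 of 359. SLC39A4 matched no annotated transcript, so the part of the carrier that its 150 codons cover was not settled. The bases around 4 of these codons are shown, with the codon in capitals.
SLC2A8, chr9:130169478-130169510, plus strand: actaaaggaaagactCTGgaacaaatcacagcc
SLC35A2, chrX:48763741-48763773, minus strand: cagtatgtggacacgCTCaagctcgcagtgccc
SLC24A1, chr15:65943122-65943154, plus strand: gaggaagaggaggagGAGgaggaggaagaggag
SLC9A3R1, chr17:72745082-72745114, plus strand: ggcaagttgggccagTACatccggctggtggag
The stretch in SLC24A1 is a repeat of glutamate codons whose 29 bases occur in 2 other genes, and that of SLC9A3R1 occurs in 1 other gene, so those peaks are uncertain. The stretches of SLC2A8 and SLC35A2 occur in no other gene.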

How the data were processed

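Ribosome-protected fragments and total RNA were sequenced from HEK293 cells treated with control siRNA, with 3 libraries of each kind. Per the study's methods, adapters and PCR duplicates were removed, fragments of defined length were aligned to hg19 transcripts, reads were placed with an offset, and the most abundant transcript stood for each gene. The submitters' processing notes list cutadapt 1.16, Bowtie 1.1.2, TopHat2 2.1.1 and HTSeq 0.9.1, while the study's methods name Hisat2 for total RNA. The library totals were not used here.

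The authors deposited 2 tables. The first holds the translational efficiency, which by its name the authors made as the ratio of RPF to total RNA per gene and replicate before they deposited it. How they scaled and counted it is stated neither in the labels nor in the methods. The second holds, as the authors made it, normalised in-frame RPF reads per codon divided by TPM for 1 transcript per gene, with replicates combined. Since the values of a transcript are sums of whole multiples of 3 steps, 1 per replicate, the reads were recovered (relative tolerance 1e-09), and 86 of 30452 values above 0 that could not be solved were replaced by an estimate from the solved values of the transcript. The mRNA level is the inverse of the geometric mean of the 3 steps.

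Ratios were tested with limma 3.58.1 (R 4.3.3) as log2(ratio + 0.01) against the median of all values, 0.383, and with its treat method for more than 2-fold, Benjamini-Hochberg FDR 0.05 over 8121 genes. The pseudocount understates differences of low genes. On simulated data with every gene at the median except 200, 169 of 200 genes moved by 1 on the log2 scale were called, as were 15 unmoved genes. Of 200 moved by 2, 181 passed the 2-fold call with 0 unmoved. In the real data 44.7% of genes were called higher and 44.6% lower, so the simulation does not give the error rate of those calls. Sequences, positions and base composition are from GENCODE 44 on GRCh37, where 114 of 121 carriers and 9138 of 9570 transcripts matched by symbol and CDS length.

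Genes named were the 10 highest and 10 lowest translational efficiencies, the 5 highest and 5 lowest CDS occupancies and first to last ratios, the 5 highest 5′UTR shares, 3′UTR shares, single codons and SDs, a list of well-known carriers and the proteins that are not transporters. Others were named after their values were seen, where a family, a partner or an upstream ORF called for it. The members and lists were chosen with earlier results of these data known. Results of some genes that met this rule are not reported here, although they were counted in all totals. The alternatives were other pseudocounts, a filter, a replicate block, leaving out replicates, and other windows and codons. Read counts cover counting error only.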

Additional observations from a re-analysis of the deposited data

Results flagged for a closer look

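Ribosomes are not thought to read the 3′UTR as they do the CDS, and the comparisons above do not use it. The 5 carriers with the highest share of their occupancy there all had more than the 3 reads that a count of 0 allows, as did 29 of 121 carriers, while 70 had none. SLC9A7, an organellar sodium and proton exchanger, had 150 reads (30.5% of its occupancy), 130 of them in 1 codon, 828 codons after the stop codon, and the 29 bases there occur in no other gene. SLC16A7, a pyruvate carrier, had 79 reads (7.51%), 68 of them within 10 codons of a single place. The 29 bases at that place occur in 32 other genes. SLC19A3, a thiamine carrier, had 11 reads (8.78%), SLC12A8 had 9 (8.94%) and SLC48A1, a heme carrier, had 7 (16.7%). Their highest codons lie in stretches found in 16, 64 and 28 other genes. The part of shared sequence in these reads was not tested.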

How the results depend on the processing

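Of the counts of calls, 1 moved by more than 1.5 times: the carriers more than 2-fold below the median fell from 18 to 9 with a pseudocount of 0.1, which also lowered the share over all genes to 10.2%. The geometric mean of translational efficiency over the carriers was 0.303, where their median was 0.278. The median CDS occupancy was 0.0306 without the 15 codons at each end and 0.0296 without the highest codon, and 0.0354 in carriers with 100 reads or more, a limit added after seeing the data. The median first to last ratio was 0.672 with windows of 50 codons (0.918 in all transcripts), 0.873 without 5 codons at each end, 0.852 for a CDS over 600 nt and 0.847 with 100 reads or more. The median 5′UTR share was 1.52% without the 5 codons next to the start (0.566% in all transcripts) and 1.64% without transcripts whose 5′UTR is coding in another transcript, added after seeing the data. Fragments and total RNA with the same replicate number come from the same lysate, and the ratio pairs them. A replicate block, with the median of each replicate removed, gave 22 higher, 45 lower, 10 more than 2-fold higher and 18 more than 2-fold lower, and changed no call of the 75 carriers against the median. Leaving out each replicate in turn gave 21 higher, 41 to 42 lower, 8 to 9 and 18 past 2-fold, and medians of 0.265 to 0.285. Of 525 calls of single carriers under the alternatives, 509 were kept, 15 were lost, 1 was gained and 0 turned. The 7 carriers concerned were SLC10A4, SLC1A5, SLC23A2, SLC30A6, SLC35A1, SLC35A5 and SLC4A1AP. Without the carriers that share 20% or more of their 30-mers, also added after seeing the data, 20 were higher and 44 lower, and without SLC7A6OS 22 and 44. Occupancy has no replicate values, and 10 carriers with under 100 reads give the least certain values.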
